A study of Homo sapiens with 6 samples.

Results

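The genes described here encode the enzymes and transporters that take glucose to pyruvate and lactate and that admit pyruvate to the mitochondrion, measured as mRNA in HepG2 cells with and without knockdown of ARHGEF2. The 32 genes were chosen by name for their step in the pathway, out of the 27605 genes listed in the expression table, and all 32 were found. They comprise 2 glucose transporters, 3 hexokinases, phosphoglucose isomerase with phosphoglucomutase, 3 phosphofructokinases, 3 bifunctional PFK2/FBPase2 enzymes, 2 aldolases with triose phosphate isomerase, 6 genes of the payoff phase, 2 lactate dehydrogenases, 2 lactate transporters, 3 pyruvate dehydrogenase (PDH) kinases and 3 subunits of the PDH complex. HepG2 is a human liver cancer cell line. ARHGEF2 encodes a guanine nucleotide exchange factor that activates the small GTPase RhoA. The control cells (shNC, 3 libraries) carried a negative control hairpin and are labelled wild type, and the knockdown cells (shARHGEF2, 3 libraries) carried a lentiviral hairpin against ARHGEF2. Both were grown in DMEM with 10% fetal bovine serum. Whether the shARHGEF2 libraries share 1 hairpin, and whether libraries of a group came from separate cultures, is not given in the sources used here, so p-values measure the spread between these libraries only.

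Glycolysis splits glucose into pyruvate in the cytosol, with an early phase that spends ATP and a payoff phase that returns ATP and NADH. Lactate dehydrogenase regenerates NAD+ by reducing pyruvate to lactate, which leaves the cell through monocarboxylate transporters, whereas the PDH complex turns pyruvate into acetyl-CoA and is switched off by the PDH kinases. Tumor cells often run glycolysis at a high rate in the presence of oxygen, and many genes of the pathway are targets of the hypoxia-inducible factor HIF.

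Levels are given as FPKM (the fragments assigned to a gene, relative to its transcript length and to the depth of the library), a unit in which genes can be compared. Fold changes are differences of log2(FPKM + 1), shARHGEF2 minus shNC, from limma with Benjamini-Hochberg adjustment over the 12291 genes whose mean reached 0.5 FPKM. The threshold for a call was an adjusted p of 0.05. The read depth behind the values is unknown. ARHGEF2 itself had 13.0, 14.4 and 13.9 FPKM in the shNC libraries and 4.25, 4.004 and 4.82 FPKM in the shARHGEF2 libraries. The cells had little of the hepatocyte programme. Of 18 hepatocyte markers, 10 were among the 27605 genes listed, all of which had a value above 0 in at least 1 library. Why the other markers are not listed was not tested. VTN alone had a mean that reached 0.5 FPKM, with summed levels of the list of 6.02 to 6.23 FPKM in shNC and 6.68 to 7.70 FPKM in shARHGEF2 cells. AFP, APOA1, SERPINA1 and HNF4A did not exceed 0.248 FPKM in any library. HepG2 cells are known to express these genes, so their levels go against the label, and the cells are called HepG2 here as labelled. The keratin genes KRT8 and KRT18 were expressed at 107 to 216 FPKM, while EPCAM, CDH1 and the endothelial and blood cell markers were under 1 FPKM in all libraries. VIM, a mesenchymal marker, was at 104 to 188 FPKM. Libraries of 1 group differed along GC content, with a Spearman's rho between a gene's deviation and its GC content of -0.46 to 0.20 in shNC and -0.29 to 0.57 in shARHGEF2 libraries. The part of these markers and of GC content in the results was not tested, apart from the fit with the GC trend removed.

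All 32 genes passed the filter on low values, and 0 of them were called, against 0.277% of all genes tested (0.195% higher and 0.0814% lower in shARHGEF2 cells). The smallest adjusted p was 0.180 (limma, for TPI1). Without adjustment, 7 genes had a p under 0.05 in limma, which is 21.9% of the 32 against 13.7% of all genes tested. Of these, GPI, TPI1, GAPDH, PGAM1 and ENO1 were on the lower side in shARHGEF2 cells (15.6% against 5.55% of all genes), and HK1 and SLC16A3 were on the higher side (6.25% against 8.10%). The shARHGEF2 libraries lay entirely below the shNC libraries for 6 genes (GPI, TPI1, GAPDH, PGK1, ENO1 and PDK1), or 18.8% against 9.17% of all genes tested, and entirely above them for HK1 and SLC16A3, or 6.25% against 11.3%. In either direction this was 8 of the 32 genes against 20.5% of all genes tested. The log2 fold change was below 0 for 20 of the 32 genes and above 0 for 12, with a median of -0.08, whereas it was below 0 for 50.4% of all genes tested. In 14 alternative fits between 18 and 22 of the genes were below 0 (of 30 tested in 1 of these fits and of 32 in the others), and 0 were called in each. The fold changes ran from -0.40 for LDHA to 0.49 for PFKFB3, and the 95% interval of 24 genes lay within 0.5 of 0 on the log2 scale.

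Added together, the 32 genes had 6903, 6160.3 and 6401 FPKM in shNC and 5411, 5483 and 5750.1 FPKM in shARHGEF2 libraries. All shARHGEF2 sums were below all shNC sums. As a share of all FPKM in a library this was 1.97%, 1.88% and 1.96% in shNC and 1.62%, 1.71% and 1.78% in shARHGEF2 cells. GAPDH alone made up 43.5% to 48.2% of the sum. Without it, the summed level was 3319 to 3640.2 FPKM in shNC and 2885 to 3065 FPKM in shARHGEF2 libraries, again without overlap. In bulk RNA, fewer cells with a high level and less RNA per cell cannot be told apart.

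By abundance, of the 11 members with a mean of 100 FPKM or more, 9 had a log2 fold change below 0, and their median was -0.25. Over all 417 genes at that level the median was -0.04, with 60.2% below 0. The 13 members between 10 and 100 FPKM, GPI among them, had a median of -0.01 and the 8 members under 10 FPKM, PDK1 among them, one of -0.03. These classes were not tested against each other, and the pseudocount of 1 FPKM draws the fold changes of scarce genes towards 0.

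**Figure D1:**
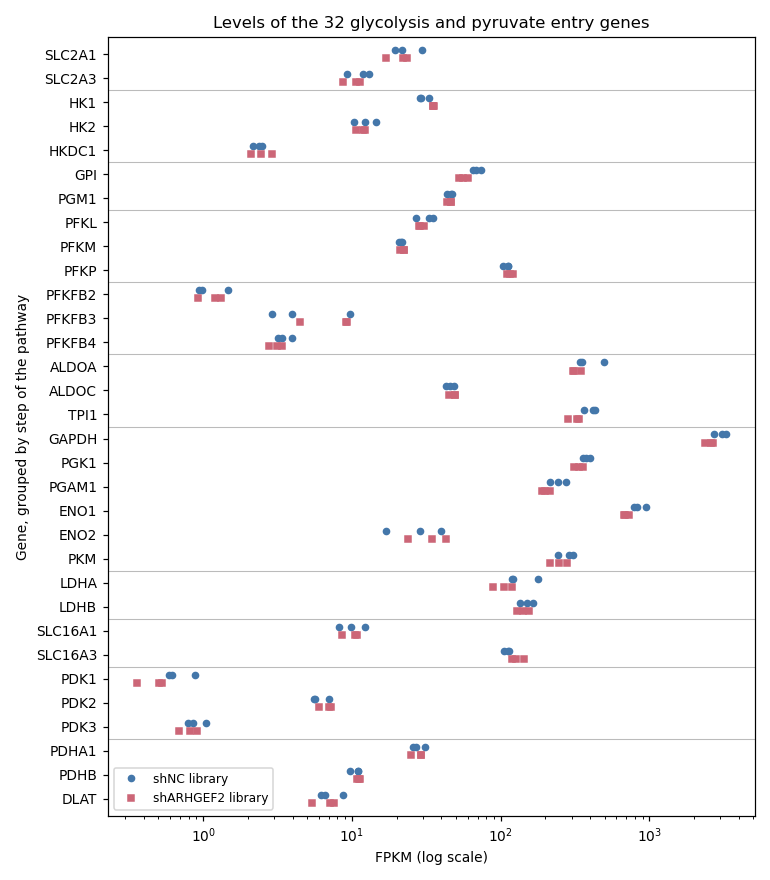
Levels of the 32 genes in FPKM on a log scale, with 1 point for each library (circles shNC, squares shARHGEF2, 3 libraries each) and lines between the steps of the pathway. GAPDH stood highest at 2353 to 3263 FPKM and PDK1 lowest at 0.360 to 0.877 FPKM.

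**Figure D2:**
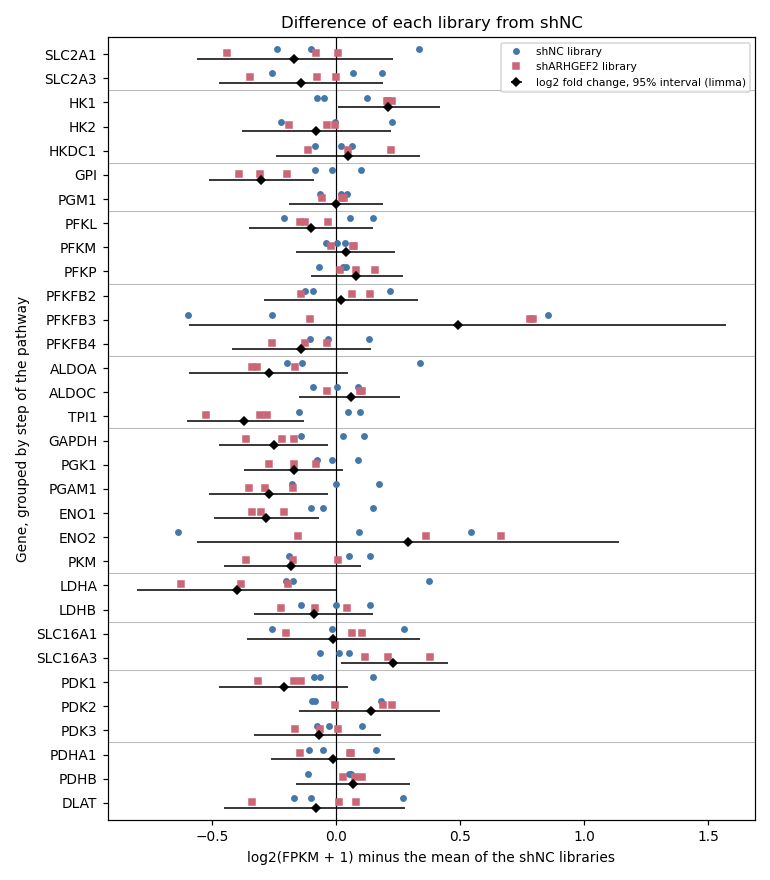
Each library's log2(FPKM + 1) minus the mean of the shNC libraries, for the 32 genes. Diamonds and bars are the log2 fold change and its 95% interval from limma, and the bars of GPI, TPI1, GAPDH, PGAM1 and ENO1 lay below 0 and those of HK1 and SLC16A3 above 0 before adjustment.

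Start regions were examined for the 9 members that either had an unadjusted p under 0.05 or did not overlap between the groups. HIF binds the core ACGTG or GCGTG, and both cores were searched on both strands of the 250 bases before each RefSeq start (GRCh38.p14). RefSeq starts were found for 29 of the 32 genes. The core ACGTG lay before at least 1 start of 19 of these genes, and before 22 of their 59 starts (37.3%), against 18.5% of all 35116 starts. Either core lay before 32 of the 59 starts (54.2%) against 43.2% of all starts. Starts of 1 gene can overlap, so they are not independent. Among the 9 members, ACGTG was found before a listed start of GPI, TPI1, GAPDH, PGK1, SLC16A3 and PDK1. Only GCGTG was found for HK1 and ENO1. Neither core lay before the 1 start listed for PGAM1, and any other start of that gene was not searched. ACGTG in 6 of the 9 compares with 19 of all 29 genes with a start, and SLC16A3 differed on the higher side. A share by gene over all genes is not given here. The whole window is printed for GAPDH and PGAM1. Each had 1 start among the RefSeq starts used here, and no exon of another transcript of the same strand in the window. For 5 others the 25 bases around the ACGTG nearest to a start are printed, among those with full flanks in the window. Which start these cells use was not tested, so a window may not lie before the start of the measured mRNA. For HK1 and ENO1 none is printed. Capitals mark the cores, which read CACGT where the core lies on the other strand.
GAPDH, chr12:6535014-6535263, plus strand: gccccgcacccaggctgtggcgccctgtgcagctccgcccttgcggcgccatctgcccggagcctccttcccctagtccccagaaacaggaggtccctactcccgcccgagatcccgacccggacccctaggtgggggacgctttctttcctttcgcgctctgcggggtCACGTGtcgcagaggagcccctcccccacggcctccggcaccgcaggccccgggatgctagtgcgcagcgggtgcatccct
PGAM1, chr10:97427568-97427817, plus strand: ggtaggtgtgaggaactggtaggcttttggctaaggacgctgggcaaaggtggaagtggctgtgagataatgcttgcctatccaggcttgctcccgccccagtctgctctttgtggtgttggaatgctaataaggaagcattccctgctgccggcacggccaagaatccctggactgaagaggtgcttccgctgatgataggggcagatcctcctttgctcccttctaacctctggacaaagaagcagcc
GPI, chr19:34364820-34364844, plus strand: actgcctgtaACGTGgaaggtgttc
TPI1, chr12:6868078-6868102, plus strand: tgcgccgccgCACGTagccccagac
PGK1, chrX:78104055-78104079, plus strand: acggaagccgCACGTctcactagta
SLC16A3, chr17:82228977-82229001, plus strand: tgcgcgggggACGTGccgcgccagc
PDK1, chr2:172556063-172556087, plus strand: tgctgcccgcCACGTccctCACGTa
In GAPDH the core was read on both strands of the palindrome CACGTG, so its 2 matches overlap. The first base of the core lay 162 bases before the start in GPI, 183 in PGK1, 55 in SLC16A3 and 17 in both TPI1 and PDK1, and PDK1 held another core in the same stretch, nearer to the start. These matches describe letters only, and binding was not measured here.

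Glucose enters through SLC2A1 and SLC2A3, the facilitative transporters GLUT1 and GLUT3. SLC2A1, the higher of these in every library, had 19.6, 21.7 and 29.7 FPKM in shNC and 23.5, 16.9 and 22.0 FPKM in shARHGEF2 libraries. The groups overlapped, with the highest value in an shNC library and the lowest in an shARHGEF2 library. Its log2 fold change was -0.17 (95% interval -0.56 to 0.23). It went to -0.00 without shNC replicate 3, to -0.03 without shARHGEF2 replicate 2 and to -0.29 without shNC replicate 1. SLC2A3 ranged from 8.67 to 13.0 FPKM over the 6 libraries, with a log2 fold change of -0.14.

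Hexokinases trap glucose in the cell as glucose 6-phosphate. HK1, the most abundant of them, had 28.7, 29.3 and 33.2 FPKM in shNC and 35.2, 35.7 and 35.1 FPKM in shARHGEF2 libraries. The shARHGEF2 values were nearly equal and all lay above the shNC values. The means were 30.4 ± 2.42 and 35.4 ± 0.296 FPKM (SD, n = 3 each), and the log2 fold change of 0.21 (SE 0.09) was not called (adjusted p = 0.352 in limma). HK2, the hexokinase that is often raised in tumors, ranged from 10.4 to 14.5 FPKM with overlapping groups and a log2 fold change of -0.08. HKDC1, a hexokinase-like gene that the study names elsewhere for its response to ER stress, ranged from 2.09 to 2.89 FPKM with a log2 fold change of 0.05.

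GPI converts glucose 6-phosphate to fructose 6-phosphate. It had 74.3, 68.5 and 65.3 FPKM in shNC and 60.3, 55.9 and 52.6 FPKM in shARHGEF2 libraries. No shARHGEF2 library reached the lowest shNC library, with a gap about as wide as the steps between libraries of a group. The shARHGEF2 mean was 0.811 of the shNC mean, and the log2 fold change was -0.30 (SE 0.09, 95% interval -0.51 to -0.09, adjusted p = 0.223 in limma). PGM1, which links glucose 6-phosphate to glycogen, stood at 43.5 to 47.0 FPKM and showed the difference nearest to 0, with a log2 fold change of 0.00 and a 95% interval of -0.19 to 0.19.

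Phosphofructokinase commits the sugar to glycolysis. PFKP, the platelet type, was the most abundant form, with 111, 104 and 113 FPKM in shNC and 122, 111 and 116 FPKM in shARHGEF2 libraries. Values of both groups interleaved. Its log2 fold change was 0.08 (95% interval -0.10 to 0.27). PFKL, the liver type, ranged from 27.07 to 34.99 FPKM with a log2 fold change of -0.10, and PFKM, the muscle type, from 20.7 to 22.4 FPKM with one of 0.04. The spread of PFKM was small, with a coefficient of variation of 2.71% in shNC and 3.63% in shARHGEF2 libraries.

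The PFKFB enzymes make and remove fructose 2,6-bisphosphate, the activator of phosphofructokinase. PFKFB3 had 2.91, 3.94 and 9.68 FPKM in shNC and 9.17, 9.24 and 4.50 FPKM in shARHGEF2 libraries. Each group held values from near the bottom and near the top of this range, and shNC replicate 3 was the highest of all. Its log2 fold change of 0.49, the highest of the 32, had a 95% interval of -0.59 to 1.57 (adjusted p = 0.694 in limma). With 1 library left out, the log2 fold change of PFKFB3 ran from 0.19 without shNC replicate 1 to 0.92 without shNC replicate 3, and was 0.79 without shARHGEF2 replicate 3. PFKFB4 ranged from 2.77 to 3.95 FPKM and PFKFB2 from 0.916 to 1.46 FPKM, both with overlapping groups. PFKFB1, the liver form, was at 0 in 5 libraries and at 0.0209 FPKM in the other.

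Aldolase and triose phosphate isomerase yield the triose phosphates that enter the payoff phase. TPI1 had the smallest p of the members, with 419.7, 434 and 366 FPKM in shNC and 335, 282 and 328 FPKM in shARHGEF2 libraries. The groups did not overlap. The means were 407 ± 35.8 and 315 ± 28.6 FPKM (SD, n = 3 each), a ratio of 0.774, and the log2 fold change was -0.37 (SE 0.10, 95% interval -0.60 to -0.13, adjusted p = 0.180 in limma). TPI1 kept an unadjusted p under 0.05 in limma in each of the 14 alternative fits, with fold changes of -0.44 to -0.29. Reads of TPI1 can be shared with its 3 listed pseudogenes, whose summed level was 50.5 to 66.0 FPKM, and with these added the ratio of the means was 0.786. ALDOA, the main aldolase here, ranged from 309 to 493 FPKM. Its highest value was in shNC replicate 1, and the other values of both groups lay between 309 and 355 FPKM, with overlap. The log2 fold change of ALDOA was -0.27 (95% interval -0.59 to 0.05). ALDOC, the brain type, ranged from 42.9 to 49.4 FPKM with a log2 fold change of 0.06.

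The payoff phase held 3 of the 5 members with an unadjusted p under 0.05 on the lower side. Of its 6 genes, 5 had a log2 fold change below 0. Over all genes tested, 5.55% had such a p on the lower side and 50.4% were below 0. At 100 FPKM or more, the level of all 6 genes but ENO2, 60.2% of all genes were below 0. The step was not tested as a set. GAPDH, which forms 1,3-bisphosphoglycerate and NADH, had 3263, 2741 and 3082 FPKM in shNC and 2353, 2598 and 2685 FPKM in shARHGEF2 libraries. All shARHGEF2 values lay below all shNC values, though the gap between shNC replicate 2 and shARHGEF2 replicate 3 was narrower than the range of either group. The mean was 3029 ± 265 FPKM in shNC and 2545 ± 172 FPKM in shARHGEF2 cells (SD, n = 3 each), and the log2 fold change was -0.25 (SE 0.10, adjusted p = 0.311 in limma). After quantile normalization the fold change of GAPDH was -0.15. This gene is often used as a reference gene in quantitative PCR. The 13 listed GAPDH pseudogenes came to at most 0.789% of its level.

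PGK1, which makes the first ATP of this phase, had 372, 400.1 and 357 FPKM in shNC and 312, 335 and 356 FPKM in shARHGEF2 libraries. The groups did not overlap, but shNC replicate 3 and shARHGEF2 replicate 3 nearly met. Its log2 fold change was -0.17 (95% interval -0.37 to 0.03, adjusted p = 0.434 in limma). PGAM1, which moves the phosphate group within phosphoglycerate, had 243, 274 and 215 FPKM in shNC and 199, 189.9 and 215 FPKM in shARHGEF2 libraries. Its groups met at 215 FPKM, where shARHGEF2 replicate 3 stood just above shNC replicate 3. The log2 fold change of PGAM1 was -0.27 (SE 0.11, adjusted p = 0.319 in limma).

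Enolase and pyruvate kinase complete the path to pyruvate. ENO1, after GAPDH the most abundant member, had 943, 793 and 819.8 FPKM in shNC and 735, 672 and 689 FPKM in shARHGEF2 libraries. All shARHGEF2 libraries lay below all shNC libraries, and shNC replicate 1 was the highest. The means were 852 ± 80.0 and 698 ± 32.4 FPKM (SD, n = 3 each), and the log2 fold change was -0.28 (SE 0.09, adjusted p = 0.238 in limma). After quantile normalization the fold change of ENO1 was -0.13. ENO2, the neuronal form, was far more uneven at 16.9 to 43.1 FPKM, with overlapping groups and a log2 fold change of 0.29 (95% interval -0.56 to 1.14). PKM ranged from 216 to 306 FPKM with overlap and a log2 fold change of -0.18. The liver type pyruvate kinase PKLR was at 0.0272 FPKM in shNC replicate 1 and at 0 in the other libraries.

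Lactate dehydrogenase joins pyruvate to lactate. LDHB had 150.2, 165 and 136 FPKM in shNC and 128, 155 and 141 FPKM in shARHGEF2 libraries. The groups overlapped broadly, and the log2 fold change was -0.09 (95% interval -0.33 to 0.15). LDHA had the lowest fold change of the 32 genes, -0.40 (SE 0.17, adjusted p = 0.369 in limma), in a range of 88.3 to 178 FPKM. Its highest value was in shNC replicate 2, and the other shNC libraries, at 119 and 121 FPKM, met the highest shARHGEF2 library at 119.5 FPKM. The 5 listed LDHA pseudogenes together had 0.882 to 10.4 FPKM, and with these added the ratio of the means moved from 0.749 to 0.766.

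Lactate leaves through MCT4, the product of SLC16A3, and MCT1, the product of SLC16A1. SLC16A3 had 111, 105 and 114 FPKM in shNC and 128, 119.6 and 144 FPKM in shARHGEF2 libraries. Every shARHGEF2 library lay above every shNC library. The means were 110.4 ± 4.55 and 130.3 ± 12.3 FPKM (SD, n = 3 each), and the log2 fold change was 0.23 (SE 0.09, adjusted p = 0.323 in limma). SLC16A1 ranged from 8.24 to 12.3 FPKM with a log2 fold change of -0.01. BSG, the chaperone of both transporters, was at 196 to 268 FPKM with overlapping groups and a log2 fold change of 0.18.

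The PDH kinases were scarce. PDK1, the kinase known as a HIF target, was the least abundant member, with 0.618, 0.877 and 0.590 FPKM in shNC and 0.360, 0.504 and 0.532 FPKM in shARHGEF2 libraries. The groups did not overlap, although all values were under 1 FPKM. Its log2 fold change was -0.21 (SE 0.12, adjusted p = 0.470 in limma), and near this level the pseudocount of 1 FPKM holds the fold change close to 0, since the means differed by -0.58 on the log2 scale without it. PDK2, the most abundant PDH kinase among the members, had 5.60, 5.65 and 7.01 FPKM in shNC and 7.05, 6.03 and 7.25 FPKM in shARHGEF2 libraries. Both groups spanned most of this range, and the log2 fold change was 0.14 (95% interval -0.15 to 0.42). PDK3 ranged from 0.691 to 1.04 FPKM with overlap.

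The PDH complex itself differed little between the groups. PDHA1, its E1 alpha subunit, had 26.8, 31.2 and 25.7 FPKM in shNC and 25.1, 29.04 and 28.98 FPKM in shARHGEF2 libraries. The highest value was in shNC and the lowest in shARHGEF2, and the log2 fold change was -0.01 (95% interval -0.26 to 0.24). PDHB, the E1 beta subunit, ranged from 9.66 to 11.4 FPKM with a log2 fold change of 0.07, and DLAT, the E2 subunit, from 5.40 to 8.77 FPKM with one of -0.08. Both had overlapping groups.

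Where a step has several members, the share of 1 gene in their summed FPKM was compared, in 9 comparisons. A two-sided exact permutation test of 3 libraries against 3 cannot go below p = 0.1, so none could pass. The groups did not overlap in 4 of the 9. For the levels of single genes this held for 20.5% of all genes tested, which is a different measure. No such rate was worked out for shares. HK2 made up 25.1%, 27.7% and 28.9% of the hexokinases in shNC and 22.1%, 23.6% and 24.5% in shARHGEF2 libraries (exact permutation p = 0.1, adjusted 0.225). Its share was lower in each shARHGEF2 library, beside an HK1 level that was higher there. PFKP took 66.7%, 68.3% and 67.3% of the phosphofructokinases in shNC and 70.2%, 68.5% and 69.4% in shARHGEF2 libraries, with the same p. ALDOC took 8.53%, 11.2% and 12.1% of the aldolases in shNC and 12.4%, 13.7% and 12.5% in shARHGEF2 libraries, again with that p. These shares were higher in shARHGEF2 cells by 1.94 and 2.26 percentage points, against SDs within a group of 0.809 and 0.845 for PFKP and of 1.85 and 0.718 for ALDOC. Without shNC replicate 1, where ALDOA was highest, the difference for ALDOC was 1.22 percentage points. PDK1 took 8.73%, 11.6% and 7.03% of the kinases in shNC and 4.45%, 6.85% and 6.11% in shARHGEF2 libraries (exact permutation p = 0.1, adjusted 0.225). The shares of PFKFB4, ENO2, LDHA, SLC2A3 and SLC16A3 overlapped between the groups, with exact permutation p of 0.2 to 0.9. LDHA made up 47.7 ± 3.71% of both dehydrogenases in shNC and 42.3 ± 3.05% in shARHGEF2 cells (SD, n = 3 each).

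**Figure D3:**
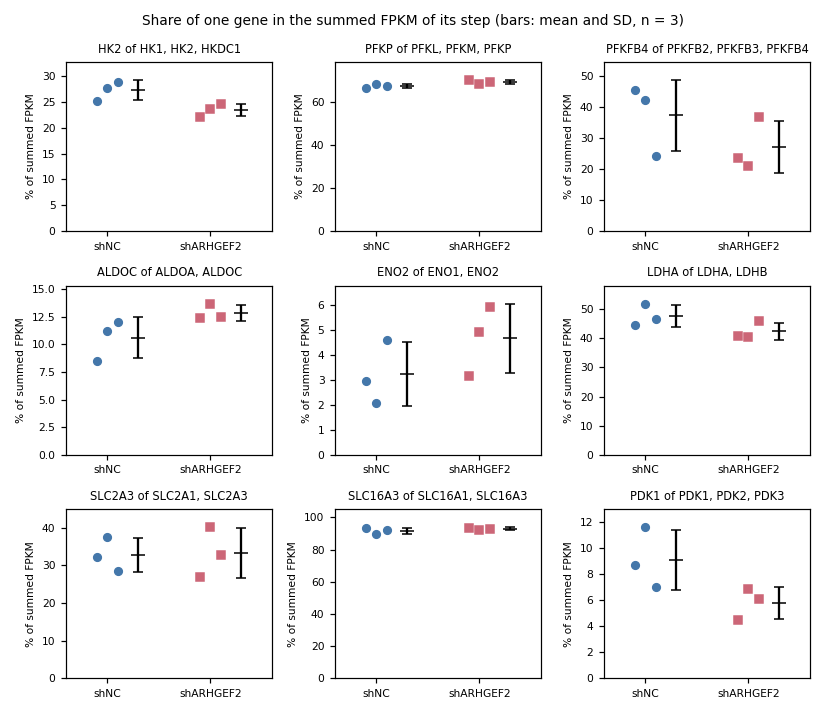
Share of 1 gene in the summed FPKM of the members of its step, in percent, for 9 steps with several members. Points are libraries (circles shNC, squares shARHGEF2) and bars the mean and SD of 3 libraries, and the groups did not overlap for HK2, PFKP, ALDOC and PDK1.

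Neighbouring pathways were described with 9 lists of 139 genes, of which 109 were tested, 0 were called on the higher side and 3 on the lower side. The other genes of glucose uptake, glycolysis and lactate had 11 tested members of 28 listed and a median log2 fold change of 0.02, and 0 of them had an unadjusted p under 0.05. ENO3, the muscle enolase, had the smallest p of them, with a log2 fold change of 0.27. The other genes of pyruvate entry, such as the carriers and phosphatases, had 8 tested members with a median of -0.08, and again 0 had an unadjusted p under 0.05. The pentose phosphate pathway, which branches off at glucose 6-phosphate, had 8 tested members, 0 with an unadjusted p under 0.05, and summed levels of 554 to 614 FPKM in shNC and 603 to 645 FPKM in shARHGEF2 libraries.

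Glycogen metabolism had 16 tested genes, 13 of them with a log2 fold change below 0, and a median of -0.15. PHKG2, a subunit of phosphorylase kinase, had a log2 fold change of 0.31, while PPP1R3C and GYS1, which promote and carry out glycogen synthesis, had -0.40 and -0.27 (adjusted p = 0.249, 0.3001 and 0.355 in limma). Gluconeogenesis had 4 tested genes, of which PCK2, the mitochondrial PEP carboxykinase, differed by -0.25 on the log2 scale (adjusted p = 0.302 in limma). PCK1 and FBP1, the liver genes of this route, did not exceed 0.176 FPKM in any library. The list of the glycerol phosphate and serine branches also holds GFPT2, the entry enzyme of the hexosamine pathway, and GLUL, glutamine synthetase, which belong to neither branch. Their log2 fold changes were 0.45 and 0.26, and that of PSAT1, an enzyme of serine synthesis, was -0.33, none of them called. The tricarboxylic acid cycle had 20 tested genes with a median of 0.01. IDH2, its mitochondrial NADP-dependent isocitrate dehydrogenase, had 20.4, 20.6 and 21.5 FPKM in shNC and 27.2, 27.1 and 26.9 FPKM in shARHGEF2 libraries. These values were tight within each group and far apart between them, and the fold change was 0.36 on the log2 scale (SE 0.08), which was not called (adjusted p = 0.127 in limma). SDHA, a subunit of succinate dehydrogenase, had a log2 fold change of 0.19.

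The 3 genes called all belonged to the HIF and hypoxia response outside glycolysis, a list of 26 genes with 25 tested, where 0.0814% of all genes tested were called on the lower side. Of the 25, 8 had an unadjusted p under 0.05 on the lower side (5.55% of all genes tested) and 1 on the higher side (8.10%), and the list median was -0.10. The list was chosen with earlier results of these data known, so its counts are not independent of the values. CA9, a carbonic anhydrase of the cell surface, had 201, 199 and 209 FPKM in shNC and 135, 131 and 136 FPKM in shARHGEF2 libraries. DDIT4, an inhibitor of mTORC1, had 242, 248 and 213 FPKM against 154, 155 and 155 FPKM. HILPDA, a regulator of lipid droplets, had 11.1, 11.8 and 11.1 FPKM against 6.38, 4.73 and 5.13 FPKM. Each fell without overlap, with log2 fold changes of -0.60 for CA9, -0.60 for DDIT4 and -0.95 for HILPDA (adjusted p = 0.0302, 0.0395 and 0.0302 in limma). These falls were greater than the fitted difference of any of the 32 glycolysis and pyruvate entry genes on the lower side, though the difference between lists was not tested. The fitted values include the pseudocount of 1 FPKM. Without it, the means of PDK1, all under 1 FPKM, differed by -0.58 on the log2 scale. Those of CA9 and DDIT4 differed by -0.60 each and those of HILPDA by -1.07. Over the 14 alternatives, CA9 was called in 5, HILPDA in 6 and DDIT4 in 3. HIF1A and EPAS1, which encode HIF subunits, had log2 fold changes of -0.08 and -0.05 with overlapping groups.

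The list of the MYC, MondoA and ChREBP axis held 6 tested genes. TXNIP, a glucose-responsive inhibitor of glucose uptake, had 25.8, 27.3 and 58.0 FPKM in shNC and 79.1, 146 and 102 FPKM in shARHGEF2 libraries. The groups did not overlap, although the spread within each was wide. The log2 fold change of TXNIP was 1.59 (SE 0.38, adjusted p = 0.181 in limma). Of the 14 alternatives, 1 called it. MLXIPL, which encodes ChREBP, had a log2 fold change of 0.28. MYC was at 10.7, 3.71 and 3.99 FPKM in shNC and 32.7, 3.13 and 3.78 FPKM in shARHGEF2 libraries, so replicate 1 stood apart in both groups.

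**Figure D4:**
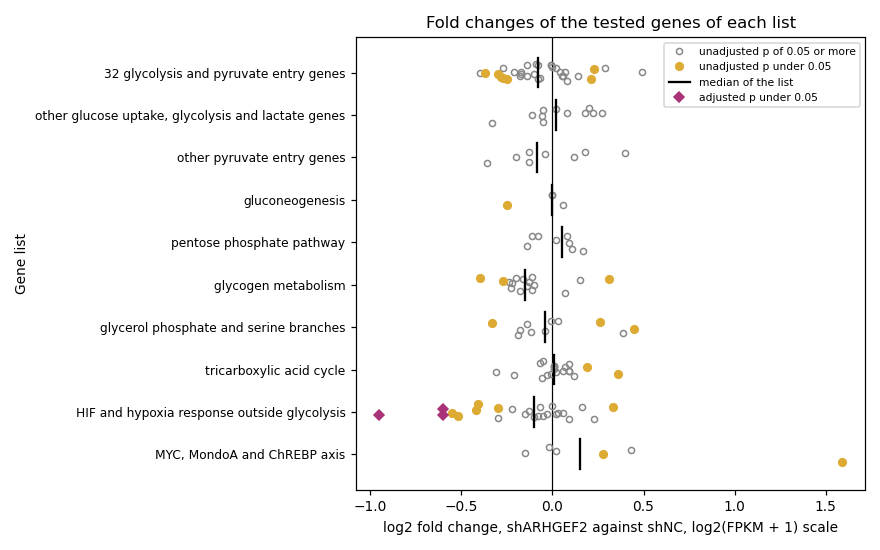
Log2 fold changes, shARHGEF2 against shNC on the log2(FPKM + 1) scale, of the tested genes of each list, with 1 point for each gene and a bar at the median. Diamonds mark the 3 genes with an adjusted p under 0.05 (CA9, HILPDA and DDIT4), all in the hypoxia list, and 0 of the 32 glycolysis and pyruvate entry genes in the top row passed.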

How the data were processed

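RNA was sequenced from 3 shNC and 3 shARHGEF2 HepG2 libraries, made from poly(A) RNA with strand marking and molecular identifiers. Per the labels and the submitters' processing notes, the tools named were cutadapt 1.9, HISAT2 2.0.4, UMI-tools and StringTie 1.3.4d, with the genome build hg19. The deposited values are FPKM per gene, calculated by the authors, and replicates were not pooled. The same table holds the authors' ratio of means, its log2 and their p-value and q-value, none of which were used.

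The FPKM values were used with no further scaling. Log2(FPKM + 1) was fitted with limma 3.58.1 in R 4.3.3 (trended and robust variances, statmod 1.5.0) for the 12291 genes whose mean reached 0.5 FPKM, and 15314 genes were not tested. Shares were compared by exact permutation tests in SciPy 1.17.1. The fit was tested on simulated data. Depth could not be recovered: at the best depth 41.4% to 45.8% of low values lay within 0.1 of a whole read, against 20% by chance, so no test for counts was made.

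Each choice was also varied: with no filter, with the replicate number as a block, a pseudocount of 0.1, at least 1 FPKM in 3 libraries, quantile normalization, median-of-ratios scaling, limma without trend or robust variances, and each library left out. A fit after subtracting each library's loess curve against GC content (span 0.3, known for 96.7% of genes) was chosen after seeing the data. The members and lists were chosen with earlier results of these data known. Genes with values in every library are members called, with an unadjusted p under 0.05 or without overlap, and the most abundant member of each step. Of other lists, called genes and then those with the smallest unadjusted p under 0.05 were named, up to 3 for each list. LDHA, ENO3, BSG, MYC, HIF1A, EPAS1 and the liver isoforms were named after their values were seen. Start regions and coordinates are from RefSeq (GRCh38.p14), and exons and pseudogenes from GENCODE 29, and no coordinate was taken from the hg19 files.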

Additional observations from a re-analysis of the deposited data

How the results depend on the processing

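Among the 32 glycolysis and pyruvate entry genes, 0 were called in each of the 14 alternatives. The number with an unadjusted p under 0.05 was 4 after quantile normalization, 4 after median-of-ratios scaling and 3 without trend or robust variances, and with 1 library left out it lay between 3 (without shARHGEF2 replicate 1 or 2) and 8 (without shNC replicate 3). It was 4 without shNC replicate 1. TPI1 stayed under this level in all 14 alternatives, GPI in 13, ENO1 in 11, GAPDH, PGAM1 and SLC16A3 in 7 each and HK1 in 5.

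Over all genes the number called was 1 with no filter, 54 with at least 1 FPKM in 3 libraries, 19 after quantile normalization, 7 after median-of-ratios scaling and 7 without trend or robust variances. It lay between 6 (without shARHGEF2 replicate 3) and 102 (without shNC replicate 3) with 1 library left out. With the replicate number as a block it was 0, where 1976 genes had an unadjusted p under 0.05 in limma, and 6 of the 32 members did. Libraries with the same number correlated in their deviations at 0.18, 0.16 and -0.10, and those with different numbers at -0.22 to 0.07. Whether the numbers pair the libraries is not settled by these values. The log2 fold change of ARHGEF2 was -1.47 both with the block (adjusted p = 0.0716 in limma) and with no filter (adjusted p = 0.0701 in limma).

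PDHA1, with a difference near 0, turned from -0.01 to 0.01 with the GC trend removed, and ranged from -0.06 (without shNC replicate 3) to 0.07 (without shNC replicate 2) with 1 library left out, and was 0.06 without shARHGEF2 replicate 1. The difference in the SLC2A3 share ranged from -2.93 (without shARHGEF2 replicate 2) to 3.62 percentage points (without shARHGEF2 replicate 1), and was -1.57 without shNC replicate 3. Leaving out 1 library also moved other differences by over 1.5 times, none of them called: LDHB to -0.16 without shNC replicate 3 and to -0.02 without either shARHGEF2 replicate 1 or shNC replicate 2, PDK1 to -0.13 without shNC replicate 2, PFKP to 0.05 without shNC replicate 2 or shARHGEF2 replicate 1, and PDK2 to 0.23 without shNC replicate 3 and to 0.09 without shNC replicate 1 or 2 or shARHGEF2 replicate 3. Differences in other shares moved as well. That of ALDOC went from 2.26 to 1.22 percentage points without shNC replicate 1, and that of PDK1 from -3.31 to -2.08 without shNC replicate 2. The causes were not tested. Unknown depth limits the values under 1 FPKM, PDK1 and PDK3 among them.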
